A study of Mus musculus with 298 samples.

Results

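The genes described are the enzymes of haem synthesis: Alas1, Alas2, Alad, Uros, Urod, Cpox, Ppox and Fech. They were taken by name from the deposited blood expression values, and all 8 were present among 14605 genes. The blood came from 20 C57BL/6 mice carrying a tetracycline transactivator (SCLtTA) and a human BCR-ABL transgene, genotype tTA+/-, BCR-ABL+/-, with 1 library per mouse and week. Tetracycline in the drinking water keeps the transgene off, and its removal starts a disease that models chronic phase chronic myeloid leukaemia.

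All mice, male and female, were 6 to 8 weeks old at the start and carried both alleles, controls included, and all had been kept on tetracycline water at 0.5 g/L. Control mice (n = 3, 57 libraries) remained on it. The CML cohort (6 mice, 94 libraries) was off it throughout. The TOTO cohort (4 mice, 48 libraries) was off tetracycline for 6 weeks and then on it again for 12. The TKI cohort (7 mice, 99 libraries) was off tetracycline and was given the BCR-ABL kinase inhibitor nilotinib by daily gavage for 4 weeks from week 6, at 50 mg/kg. Week 0 preceded tetracycline removal. The sources used here do not say whether week 6 blood preceded the first dose or the return to tetracycline; it served as the starting level for both. The SCL (Tal1) element that drives the transactivator is known for its activity in blood stem and progenitor cells.

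Haem is built in a chain that starts and ends in mitochondria. The first step joins glycine to succinyl-CoA and sets the pace: Alas1 encodes the enzyme used by most cells, and Alas2, on the X chromosome, encodes the enzyme of developing red cells. Alad, Uros and Urod act in the cytosol, Cpox and Ppox return the intermediate to the mitochondrion, and Fech inserts iron. In blood, Alas2 RNA is known from reticulocytes, the youngest red cells, which still hold RNA for haemoglobin. Haem represses Alas1 in many tissues, whereas Alas2 translation follows the iron supply.

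The tissue label reads PBMC (mononuclear cells), although RNA was extracted from whole blood. Haemoglobin genes held a median of 42.6% of the TPM (an abundance per transcript length, scaled to a common sum per library), with a range from 0.331 to 74.8% over libraries. Every library held red cell RNA, contrary to the mononuclear label. The non-coding RNA Rn7s2 took a further 14.5 to 56.6%. Because the sum is fixed, the TPM of every other gene falls when these rise, and in bulk blood fewer cells of a type and less RNA per cell cannot be told apart. At week 0 haemoglobin fell into separate ranges, 6.67 to 30.6% in 8 libraries and 49.6 to 67.2% in the other 12. The 6 TKI libraries of week 11 had a median haemoglobin share of 2.41%. Control mouse 490 at week 17 stood apart: 6 of the 8 enzymes were listed at 0 TPM there. CML mouse 487 had the transgene listed at 0 in 16 of its 19 libraries (highest 0.409 TPM), against a highest value of 0.716 TPM in controls.

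Because Alas2 stood apart from the other members in level, the 250 bases before its annotated start are shown. They lie at chrX:149330121-149330370 on the plus strand of GRCm39, read from the genome and GENCODE M39:

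Alas2 promoter: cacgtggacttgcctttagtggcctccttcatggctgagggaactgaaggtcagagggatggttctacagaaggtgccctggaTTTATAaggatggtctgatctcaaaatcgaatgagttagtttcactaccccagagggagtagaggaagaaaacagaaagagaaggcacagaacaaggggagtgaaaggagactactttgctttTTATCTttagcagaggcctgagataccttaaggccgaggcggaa

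The capitals nearer the start, 44 to 39 bases upstream, are an antisense match to AGATAA, one of 4 letter strings searched for the erythroid factor GATA1 on both strands (AGATAA and TGATAA, then AGATAG and TGATAG). The other capitals are an antisense match to TATAAA, 167 to 162 bases upstream. Of 21770 protein-coding genes, 26.2% held one of the GATA strings in a window of this length and 11.9% held TATAAA. Fech also held 1 GATA match, and the other 6 members held none. TATAAA was found in the Alas2 window alone among the 8 members. CCNCNCCC, the letters of the erythroid KLF1 motif, was in 48.8% of all windows and was found in those of Fech, Alad and Uros. Each window lies before the start of a gene's canonical transcript, and windows before other starts were not searched. The Alas1 start used is a distal one, so its lack of matches does not describe its other starts. These matches are letters only, and occupancy was not measured.

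Alas2 (ENSMUSG00000025270.14, GRCm39 chrX:149330371-149353634, plus strand) was by far the most abundant member, with a mean of 1921 TPM over all libraries and rank 13 among all genes. Its lowest value was 18.6, its median 2012 and its highest 3673 TPM. Alas1 (ENSMUSG00000032786.17, chr9:106110642-106135734, minus strand) had a mean of 11.8 TPM, a median of 8.19 and a range from 0 to 58.2. Since TPM is per transcript length, the levels of different genes can be set side by side: the median ratio of Alas2 to Alas1 was 243, and it ran from 0.367 to 5115 over the 297 libraries with Alas1 above 0. The lowest ratio and the lowest Alas2 value came from 1 TKI library of week 11, that of mouse 512, with a haemoglobin share of 0.331%.

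Between the first and last steps the levels dropped by orders of magnitude. Fech, which completes haem, was second with a mean of 373 TPM (median 376, range 10.5 to 826, rank 95). Urod, which removes carboxyl groups from uroporphyrinogen, averaged 19.3 TPM. Ppox and Cpox, the mitochondrial oxidases, averaged 5.69 and 3.51 TPM. Uros and Alad, the enzymes that close the ring and form porphobilinogen, averaged 1.94 and 1.72 TPM, ranks 8580 and 8963. Alas2 thus made up a median of 82.0% of the summed TPM of the 8 genes and Fech 15.9%. On GRCm39, Alad lies at chr4:62423283-62438587 and Urod at chr4:116844840-116851610, Uros at chr7:133285987-133311801 and Ppox at chr1:171100969-171109385, all on the minus strand, and Cpox at chr16:58490414-58537999 on the plus strand. All 8 passed the filter used for testing, a mean of at least 1 TPM, and Alad and Uros passed it narrowly.

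**Figure D1:**
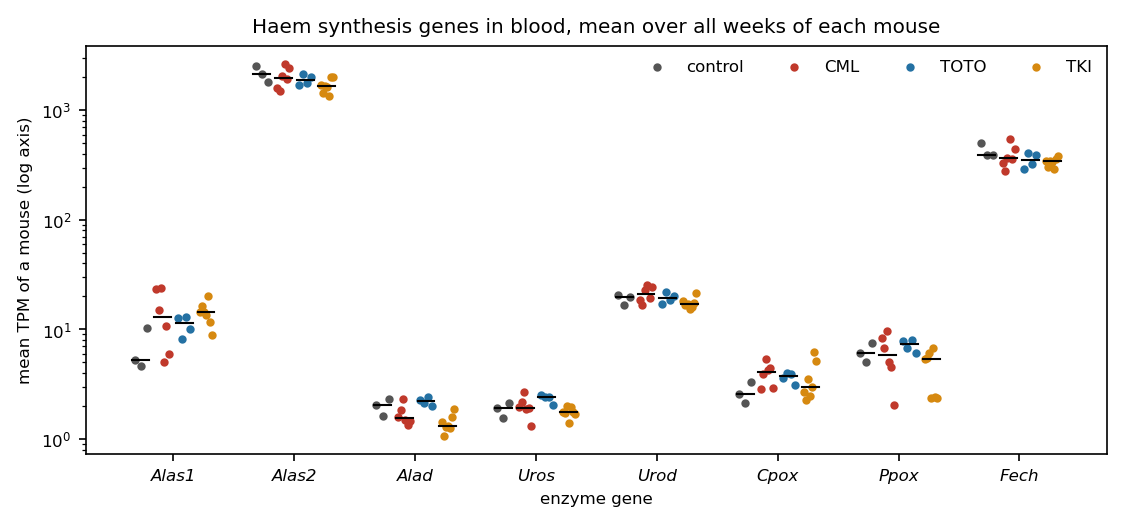
TPM of the 8 enzymes on a logarithmic axis, with 1 point per mouse (its mean over all weeks), coloured by cohort, and black bars at cohort medians. Alas2 (control mean 2167 TPM) and Fech (control mean 425 TPM) lie above the other 6 enzymes in every cohort.

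Averaged over the weeks of each mouse, Alas2 was 2167 ± 357 TPM in control mice (SD, n = 3), 2022 ± 444 in CML (n = 6), 1910 ± 205 in TOTO (n = 4) and 1685 ± 251 in TKI mice (n = 7). Control and CML, and CML and TOTO, differed by less than the SD among mice of either cohort, and the TKI mean was below that of TOTO mice by more than the TOTO SD but less than the TKI SD. Alas1 was lowest in control and highest in TKI mice, with 6.72 ± 3.06 TPM in control, 11.0 ± 2.27 in TOTO, 14.0 ± 8.28 in CML and 14.2 ± 3.59 in TKI mice. Fech followed Alas2, from 425 ± 64.0 TPM in control to 336 ± 30.0 in TKI mice.

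Within mice, Alas2 and Fech moved together: after centring each mouse, their log2(TPM + 1) correlated at r = 0.95 over all libraries. Libraries of a mouse share that mouse and their haemoglobin share, so that these correlations are descriptions. Among 5124 genes, those most like Alas2 were Bpgm (0.986), which makes the red cell effector 2,3-bisphosphoglycerate, and the globin genes Hbb-bt (0.979), Hba-a2 (0.974), Hba-a1 (0.973) and Hbb-bs (0.970). Fech was most like Tent5c (0.970), Bpgm (0.968) and Slc25a39 (0.960), a mitochondrial glutathione carrier. The globin copies share sequence, which makes their separate values uncertain.

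Alas1 did not follow the red cell genes, with r = -0.54 to Alas2 (-0.22 on values rescaled by median-ratio size factors, which set the typical gene equal between libraries). It was most like Vsir (0.967), Snx18 (0.967), Rab31 (0.966), Nfam1 (0.965) and Ampd3 (0.963). Its r was 0.886 to the summed level of 10 neutrophil markers, and 0.884 over 271 libraries without week 0, TKI week 11 and the library of mouse 490 described above. Ppox was closest to Gsdmd (0.933), Stk11 (0.930) and Wdr77 (0.930), and had r = 0.74 to Alas1. Urod was closest to Txnrd2 (0.842), Psmf1 (0.830) and Glo1 (0.828), and on rescaled values to Txnrd2 (0.964) and Glrx5 (0.960), a mitochondrial glutaredoxin. Alad was closest to Tcf3 (0.866), Chchd10 (0.854) and Syvn1 (0.853), Uros to Atf4 (0.810), Eef1d (0.800) and Tcea1 (0.799), and Cpox to Mtfr1 (0.751), Fzr1 (0.737) and Pabpc4 (0.728).

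**Figure D2:**
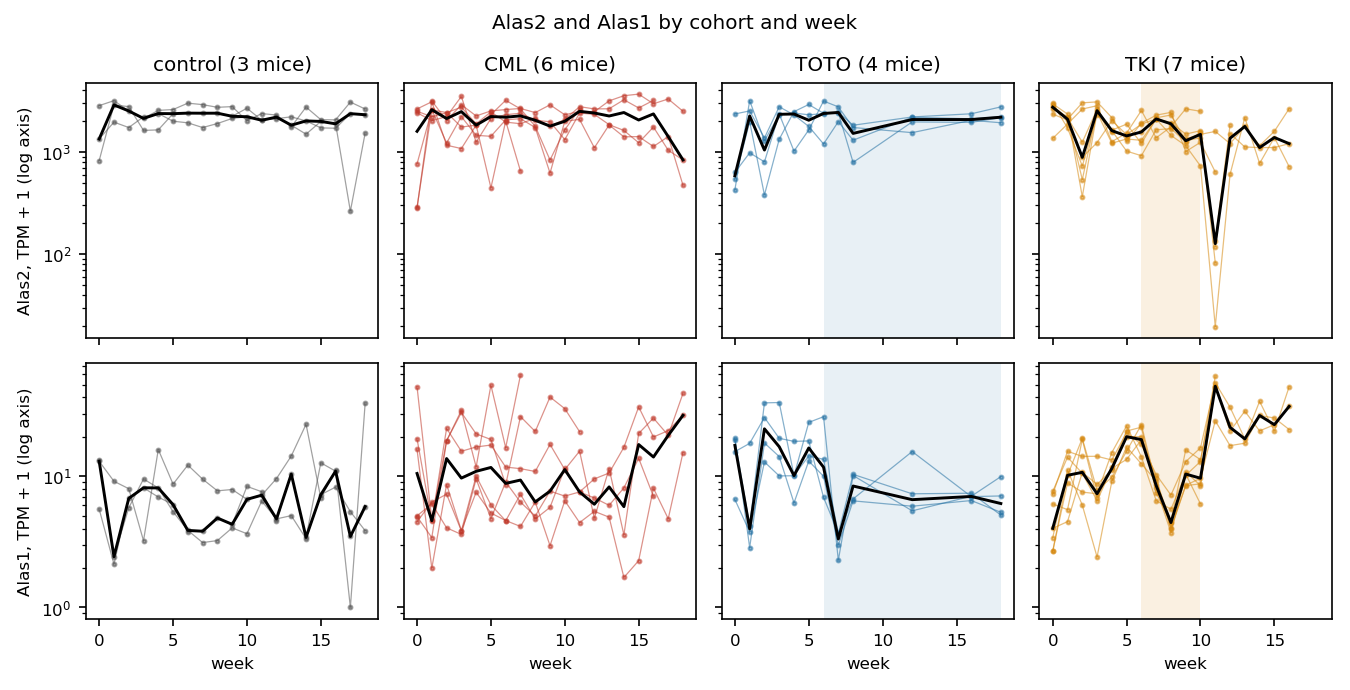
Alas2 and Alas1 as TPM + 1 (logarithmic axes) by week and cohort, with a thin line per mouse and black lines for medians; shading marks weeks back on tetracycline (TOTO) or on nilotinib (TKI). In TKI mice the Alas1 median was 18.1 TPM at week 6, 3.44 at week 8 and 47.6 at week 11, while Alas2 was 1566, 1883 and 126 TPM.

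Induction compared week 6 with week 0 in the 17 Tet-off mice. None of the 8 enzymes passed at an adjusted p of 0.05 in limma, against a background of 20.5% of 10519 genes (463 higher, 1690 lower). At an unadjusted p under 0.05, 3840 genes passed. The median change of the 8 was 0.04 on the log2(TPM + 1) scale, beside -0.34 over all genes tested. Alas1 changed by 0.67 ± 0.35 (SE, limma adjusted p = 0.157) and was higher in 11 of 17 mice.

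The cohorts were unlike each other in this step. In TKI mice Alas1 went from a median of 3.01 TPM (1.68 to 6.68) at week 0 to 18.1 (11.5 to 23.8) at week 6, with no overlap and a mean change of 2.05 ± 0.68 (SD, n = 7, 7 of 7 higher). That mean change was 2.19 in batch 2022_A and 1.86 in batch 2022_B. How many of all genes separate by week in TKI mice alone was not counted. In CML mice the mean change was -0.40 ± 1.60 (n = 6), in TOTO mice -0.13 ± 1.51 (n = 4) and in control mice -0.82 ± 0.87 (n = 3). The 8 libraries of low haemoglobin at week 0 all belonged to CML, TOTO and control mice, and their part in this spread was not tested. With week 1 as the start, the Alas1 change over all Tet-off mice was 1.05 (limma adjusted p = 0.000673), and on rescaled values it was 1.03 from week 0 (adjusted p = 3.61e-06). On rescaled values 7676 of 10519 genes passed at induction, counting both directions. With batch as a term the Alas1 change was 0.49 (limma adjusted p = 0.439).

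Alas2 changed by 0.50 ± 0.32 over the same mice (SE, limma adjusted p = 0.256), lower in 6 of 7 TKI mice (mean change -0.68) and higher on average in CML (1.22) and TOTO mice (1.49). With week 1 as the start the change was -0.20. Fech was at 0.23, Cpox at 0.31, Ppox at -0.50, Alad at -0.37, Uros at -0.22 and Urod at -0.14. Neutrophil markers moved with this step: 9 of 10 rose, with a median change of 2.22, and 3 of 13 erythroid markers rose.

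Set against the 3 control mice, the induction change passed for none of the enzymes in limma (background 0.019%, 2 genes, with 264 at an unadjusted p under 0.05). Alas1 was at 1.49 ± 0.91 (SE) and Cpox at 1.08 ± 0.72, and the other 6 lay between -0.33 (Fech) and 0.29 (Ppox). With week 1 as the start Alas1 was at 0.42, and without single mice it ran from 1.01 to 1.85. The change from week 0 to the last week of CML mice, minus that of control mice to week 18, passed for none either (background 0.0951%, 259 genes at an unadjusted p under 0.05). That last week was 7 in mouse 477, 11 in 484, 16 in 542 and 18 in 480, 487 and 541, so the times are not matched. Alas1 was at 1.20 ± 0.83 in this last-week comparison (SE, limma adjusted p = 1) and Alas2 at -0.11 ± 0.96, while the other 6 lay between -0.33 (Uros) and 0.34 (Ppox). With week 1 as the start Alas1 was at 1.12 and Alas2 at -0.64, and without mouse 487 they were at 1.44 and -0.66. For TOTO mice at week 18 against control mice the background was 0% (26 genes at an unadjusted p under 0.05), with Alas2 at 1.03 ± 1.04 and Alas1 at -1.0 ± 0.89 (both limma adjusted p = 0.993). Fech was at 0.96, and the other 5 lay between -0.42 (Ppox) and 0.14 (Cpox). With week 1 as the start Alas2 was at 0.49 and Alas1 at -1.06.

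Single control mice moved these Alas1 values widely. Mouse 490 had 35.2 TPM of Alas1 at week 18, after 12.0 at week 0. Without it the CML value was 1.98 and the TOTO value -0.22, and without control mouse 489 they were 0.35 and -1.85. Without CML mouse 477 the former was 0.71, and without TOTO mouse 545 the latter was -1.55. The Alas2 value of CML mice changed sign without mouse 489 (0.37), 477 (0.37) or 541 (0.27), and that of TOTO mice was 0.65 to 1.58 without single mice.

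Alas2 relative to haemoglobin was narrow in control mice and higher in most Tet-off libraries. The ratio is Alas2 TPM per 1000 TPM of the haemoglobin genes, a measure chosen after its values were seen. It is free of the scaling of a library, since both terms share it. In the control libraries other than mouse 490 at week 17 it ran from 3.70 to 4.54, with a median of 4.21 (56 libraries). Mouse 490 at week 17 was at 1.91.

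Tet-off libraries lay mostly above that control range. In TKI mice 4 of 7 libraries of week 0 were above 4.54, and 40 of 42 (95.2%) in weeks 1 to 6, with a median of 5.53. In CML mice other than mouse 487 these were 2 of 5 at week 0, 25 of 30 (83.3%) in weeks 1 to 6 and 37 of 40 (92.5%, highest 7.29) later. Mouse 487, with the transgene mostly at 0, was above in 10 of 18 later libraries with a median of 4.56. In TOTO mice 1 of 4 libraries at week 0 and 21 of 24 (87.5%) in weeks 1 to 6 were above the range. These shares count repeated weeks of the same mice, set against 3 control mice, and are descriptions only.

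At the first week after the return of tetracycline the ratio of TOTO mice lay in the lower part of the control range or below it. For mice 476, 482, 483 and 545 in this order it was 5.35, 4.38, 5.91 and 4.81 at week 6, then 3.92, 3.95, 3.49 and 3.11 at week 7. At week 8 it was 4.62, 4.61, 4.21 and 4.23, and at week 18 it was 4.19, 4.80, 4.06 and 4.20. All 4 mice were lower at week 7 than at week 6 (mean log2 change -0.50 ± 0.26, SD, n = 4), and 4 mice cannot give a two-sided exact p under 0.05. From week 8 to week 18, 3 of 16 libraries were above the highest control.

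Over the 17 Tet-off mice the ratio rose from week 0 to week 6 by 0.33 ± 0.25 on the log2 scale (SD), and was higher in 16 of 17 mice (p = 3.05e-05 in a two-sided exact sign-flip test, adjusted p = 0.00122 over 40 tests of 4 ratios in 10 comparisons). Leaving out each mouse in turn gave 0.28 to 0.35, and week 1 as the start gave 0.20 (adjusted p = 0.0131). The rise was 0.50 ± 0.27 in TKI mice, 0.20 ± 0.12 in CML mice and 0.22 ± 0.20 in TOTO mice, while control mice changed by -0.07 ± 0.02. The difference from control mice was 0.40 (exact permutation p = 0.0246, adjusted p = 0.0982), which fails the correction. Within batches the rise was 0.44 and 0.58 in TKI mice and 0.15 to 0.25 in CML mice. TKI mouse 514, of batch 2022_B, had a ratio of only 2.73 at week 0 and the largest rise, 1.07. The median rise was 0.43 over all TKI mice and 0.36 in batch 2022_B, below the means.

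Under nilotinib the ratio was lower at week 10 than at week 6 in 7 of 7 TKI mice. The change of -0.18 ± 0.16 (SD) failed the correction (p = 0.0156 by exact sign flips, adjusted p = 0.0893). Against CML mice, of which 4 of 5 rose, the difference was -0.25 (exact permutation p = 0.00379, adjusted p = 0.0379). That call was lost in 9 of the 12 runs without 1 mouse (adjusted p up to 0.0893). TKI libraries of weeks 7 to 10 still lay above the highest control in 26 of 28 cases. After nilotinib ended, the ratio was lower again in 6 of 6 mice, by 0.15 ± 0.18 (SD), which failed the correction (p = 0.03125 by exact sign flips, adjusted p = 0.114). From week 0 to the last week, which is not matched between cohorts, CML mice changed by 0.31 more than control mice (exact permutation p = 0.0476, adjusted p = 0.159).

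The ratio of other erythroid markers to haemoglobin also moved: it rose by 0.66 ± 0.58 at induction in 15 of 17 mice (SD, exact sign-flip adjusted p = 0.00366), and it passed against control mice (1.29, exact permutation adjusted p = 0.0379). From week 6 to week 8 in TOTO mice it was lower in 4 of 4, by 0.99 ± 0.44 on average (SD), where Alas2 per haemoglobin changed by -0.20 ± 0.23. After nilotinib it was higher in 4 of 6 mice (0.07 ± 0.89), unlike the Alas2 ratio; these differences between ratios were not tested. Fech per haemoglobin did not pass in any comparison, with 0.06 ± 0.41 at induction (SD, exact sign-flip adjusted p = 0.771), nor did Urod per haemoglobin.

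**Figure D3:**
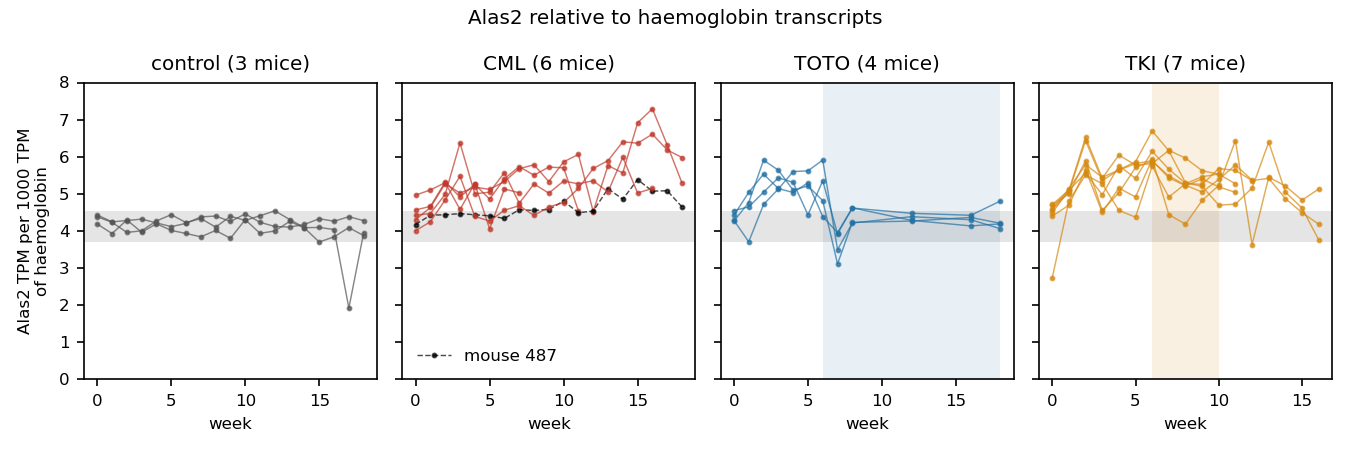
Alas2 TPM per 1000 haemoglobin TPM by week and cohort, with a line per mouse, CML mouse 487 in black, the control range in grey, and colour shading as for the levels by week. Control libraries other than 1 lie between 3.70 and 4.54, TKI libraries of weeks 1 to 6 have a median of 5.53, and all 4 TOTO libraries of week 7 lie between 3.11 and 3.95.

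Nilotinib was examined as week 10 against week 6 in the 7 TKI mice. Cpox, which oxidises coproporphyrinogen, was the only member of 8 to pass in limma (background 8%, or 4.87% counted as lower). From week 6 to week 10 it went from 2.91 to 2.58 TPM in mouse 502, 2.76 to 2.20 in 507, 4.52 to 2.86 in 508, 2.75 to 2.19 in 511, 4.81 to 1.76 in 512, 10.5 to 2.72 in 513 and 11.4 to 5.75 in 514. It was lower in 7 of 7 mice, though the weeks overlap and mice 513 and 514 had high values at week 6. The change was -0.67 ± 0.18 (SE, limma adjusted p = 0.0234), with -0.49 in batch 2022_A and -0.91 in 2022_B. The call was lost without mouse 508, 512, 513 or 514 (adjusted p from 0.064 to 0.105), without the mouse as a block (adjusted p = 0.271) and with the spread modelled over the mean change of a gene in place of its mean level (adjusted p = 0.0744).

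Alas1 over the same weeks went from 23.8 to 8.67 TPM in mouse 502, 19.1 to 7.77 in 507, 22.7 to 7.51 in 508, 18.1 to 12.0 in 511, 16.5 to 15.5 in 512, 11.5 to 12.4 in 513 and 13.1 to 5.15 in 514. It was lower in 6 of 7 mice, with a change of -0.82 ± 0.26 that did not pass (SE, limma adjusted p = 0.0553, on rescaled values 0.00398). Alas2, at -0.12 ± 0.22, and Fech, at 0.16 ± 0.23, showed no call. Ppox was at -0.35 ± 0.19, lower in 7 of 7 mice (limma adjusted p = 0.305). It passed on rescaled values (-0.35, adjusted p = 0.00965), where 3837 of 10519 genes passed. Uros was at -0.19, Alad at 0.08 and Urod at 0.07. At week 8 in place of week 10, 4 members passed as lower: Alas1 (-1.97, limma adjusted p = 1.26e-06), Cpox (-1.10), Ppox (-0.81) and Uros (-0.59). With that end week 4305 of 10519 genes passed, counting both directions.

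In the 5 CML mice with both weeks Alas1 went from 10.8 to 10.3 TPM in mouse 480, 7.61 to 31.8 in 484, 3.60 to 5.52 in 487, 3.58 to 10.5 in 541 and 8.05 to 6.07 in 542, a mean change of 0.67 ± 0.95 (SD). The TKI change minus the CML change was -1.49 ± 0.41 (SE, limma adjusted p = 0.0393), the only member to pass (background 3.46%, 3.43% as lower). Ppox (-0.69), Cpox (-0.68) and Uros (-0.52) were lower on average without passing, and the other 4 lay between -0.01 (Alad) and 0.44 (Fech). On rescaled values Ppox passed (-0.47, limma adjusted p = 0.0341), where 2199 of 10519 genes passed. The call was lost without any 1 of 9 of the 15 mice (484, 487, 541, 489, 502, 507, 508, 511 or 514), with a pseudocount of 0.1 (adjusted p = 0.0614), with no filter on low genes (0.117), without the mouse as a block (0.181), with week 9 as the end (0.286) and with the spread modelled over the mean change (0.0835). Within batches, Alas1 changed by -1.03 and -0.55 in TKI mice, against 0.63, 1.93 and 0.07 in CML mice.

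Neutrophil markers fell with Alas1 under nilotinib, 10 of 10 in both comparisons, with medians of -1.83 and -3.01. Their summed level in TKI mice ran from 3783 to 19857 TPM at week 6 and from 1190 to 5960 TPM at week 10. In CML mice it ran from 675 to 6555 TPM and from 852 to 22796 TPM. None of the 10 markers was at 0 in these libraries, and their part in the Alas1 values was not tested. Alas2 minus Alas1, each as its log2 change, was 0.70 ± 1.22 in TKI mice (SD, exact sign-flip adjusted p = 0.514) and 1.75 above CML mice (exact permutation p = 0.0492, adjusted p = 0.246).

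After nilotinib ended, Alas1 rose in every mouse examined. From week 10 to the last library it went from 8.67 to 21.8 TPM in mouse 502, 7.77 to 33.2 in 507, 7.51 to 24.1 in 508, 12.0 to 57.0 in 511, 15.5 to 47.2 in 512 and 12.4 to 45.9 in 513. All 6 later values were above all 6 earlier ones, a separation that was not counted over all genes. The change was 1.71 ± 0.27 (SE, limma adjusted p = 4.57e-05), 1 member of 8 against a background of 26.8% (10.8% as higher). For mice 511 and 513 the last library was that of week 11, and with the 4 mice sampled later the change was 1.58 (adjusted p = 0.00101).

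Alas2 took varied courses over the same interval. It went from 1484 to 2644 TPM in mouse 502, 1548 to 1204 in 507, 1375 to 1833 in 508, 1614 to 81.3 in 511, 727 to 716 in 512 and 1241 to 636 in 513. Only mouse 511, with haemoglobin at 1.62%, was far below the rest, and the change of -0.73 ± 0.48 did not pass (SE, limma adjusted p = 0.288). With the 4 mice sampled after week 11 it was 0.22. Fech was at -0.65 ± 0.44, and passed only without mouse 502 (-1.04, adjusted p = 0.0416). Alas2 minus Alas1 was at -2.44 ± 2.14 (SD), lower in 6 of 6 mice, with the smallest exact sign-flip p that 6 mice allow (0.03125, adjusted p = 0.246). With the 4 mice sampled after week 11 it was at -1.36. Ppox was at 0.48 ± 0.28 (SE, limma adjusted p = 0.215). It passed on rescaled values (0.53, adjusted p = 0.0157), where 4820 of 10519 genes passed. Urod was at 0.24, Cpox at -0.12, Alad at -0.16 and Uros at -0.21.

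All 10 neutrophil markers rose with Alas1 in this interval, with a median change of 2.52. Their sum in TKI mice was 15433 to 44711 TPM at week 11, and that upper value was the highest over all libraries. Per 1000 TPM of neutrophil marker RNA, the weekly median of Alas1 ran from 1.30 to 4.33 TPM in TKI mice and from 4.35 to 8.62 in control mice.

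**Figure D4:**
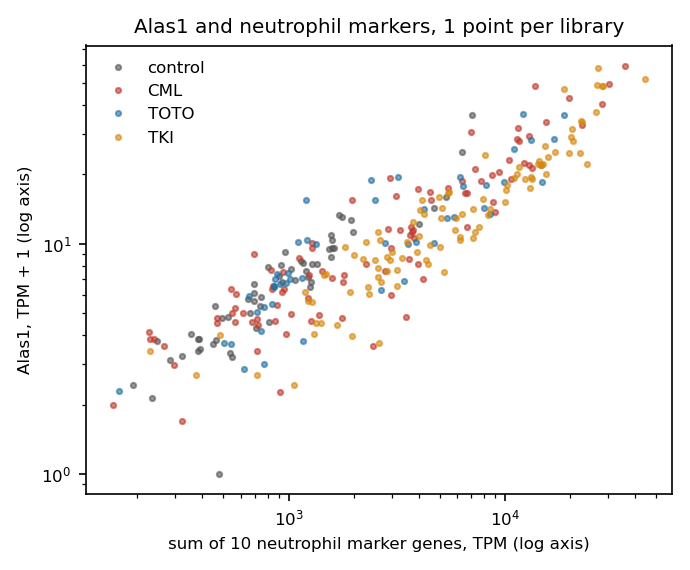
Alas1 as TPM + 1 against the summed TPM of 10 neutrophil markers (both axes logarithmic), 1 point per library, coloured by cohort. Alas1 is high where the markers are high, as in TKI mice at week 11, with a median Alas1 of 47.6 TPM and marker sums of 15433 to 44711 TPM.

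The return to tetracycline was examined as week 8 against week 6 in the 4 TOTO mice. The 3 members that passed in limma stood against a background of 74.2% of genes (69.7% higher, 4.49% lower), with a median change over all genes of 0.95. Alas2 fell, from 3143 to 1732 TPM in mouse 476, 2368 to 1822 in 482 and 2383 to 789 in 483, while mouse 545 went from 1195 to 1301. The weeks overlapped, and the change was -0.68 ± 0.25 (SE, adjusted p = 0.0198), lost without mouse 476 (0.0752) or 483 (0.226).

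Alad, the second enzyme of the pathway, rose from 0.909 to 2.91 TPM in mouse 476, 1.73 to 2.86 in 482, 1.52 to 5.32 in 483 and 1.59 to 4.81 in 545. All 4 values at week 8 were above all 4 at week 6, and the change was 1.00 ± 0.19 (SE, limma adjusted p = 0.000119). Uros rose from 1.79 to 2.75, 1.77 to 2.98, 2.00 to 3.58 and 2.21 to 3.06 TPM in the same order of mice, again without overlap, by 0.47 ± 0.17 (adjusted p = 0.0151, and 0.0656 without mouse 483). The rise of Alad was close to the median of all genes and that of Uros below it. How many of all genes separate without overlap was not counted, and 69.7% were called higher.

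On rescaled values the median over all genes was 0.07, and 3824 of 10519 genes passed as higher and 3281 as lower. The direction of most members there was downward. Alas1 was at -1.64 (limma adjusted p = 3.95e-08), Alas2 at -1.85 (0.00395), Urod at -1.16 (0.00211), Cpox at -1.42 (0.00985), Fech at -1.56 (0.00291) and Ppox at -0.38 (0.00289), all past the threshold. Alad was at 0.16 (0.406, but 0.62 with adjusted p = 0.0115 on TPM without haemoglobin and Rn7s2) and Uros at -0.36 (0.103), which reverses its sign. On the TPM scale Alas1 was at -0.63 ± 0.32 (SE, adjusted p = 0.0716), Ppox at 0.60 (0.0554, and 0.0483 with the spread modelled over the mean change), Fech at -0.40, Cpox at -0.46 and Urod at -0.05. The direction for Uros and Ppox on TPM thus moves with the scaling, while Alad was higher and Alas2 lower on each scale.

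**Figure D5:**
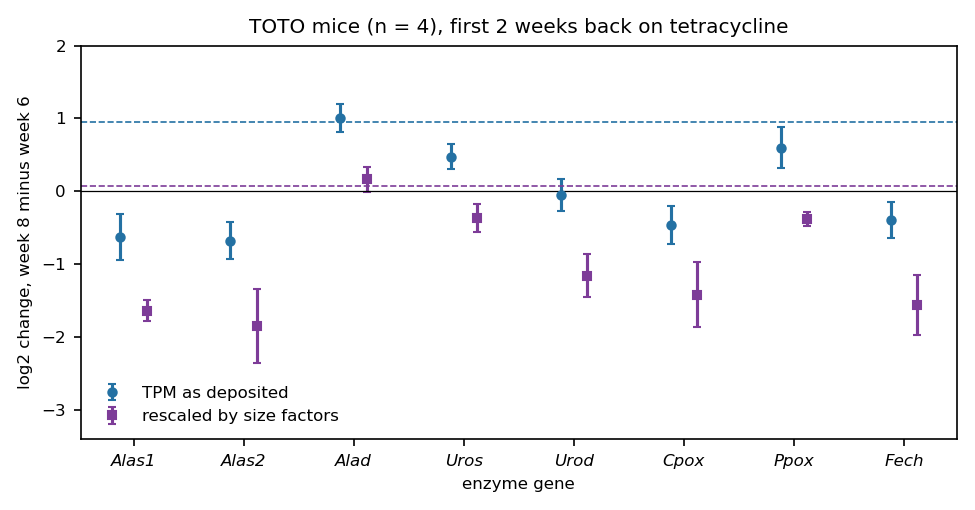
Change of each enzyme from week 6 to week 8 in the 4 TOTO mice, on the log2(TPM + 1) scale and on rescaled values, as means with standard errors; dashed lines give the median over all genes (0.95 and 0.073). Alad (1.00) and Uros (0.47) are higher on TPM but at 0.16 and -0.36 on rescaled values, and Alas2 is lower on both (-0.68 and -1.85).

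Set against the 5 CML mice over the same weeks, Alad was the only member that passed in limma (background 52.2%, 48.8% as higher). In CML mice Alad went from 1.97 to 1.81 TPM in mouse 480, 1.13 to 1.87 in 484, 1.72 to 1.51 in 487, 1.23 to 0.956 in 541 and 2.03 to 1.85 in 542. The TOTO minus CML difference was 1.01 ± 0.26 (SE, limma adjusted p = 0.00431), 0.82 without haemoglobin and Rn7s2 (adjusted p = 0.0156) and 0.27 on rescaled values (adjusted p = 0.331). Alas1 on rescaled values differed by -1.66 (adjusted p = 2.42e-06), against -0.81 on TPM (0.105). Over all genes, 3163 passed as higher and 2824 as lower on rescaled values. On TPM the other 6 lay between -0.43 (Alas2) and 0.41 (Uros).

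Erythroid and neutrophil markers fell at the return to tetracycline. In TOTO mice, 10 of 13 erythroid markers fell (median -0.67) and 10 of 10 neutrophil markers fell (median -2.70), from a sum of 3430 to 16836 TPM at week 6 to 858 to 1223 TPM at week 8. The median sum of B cell markers went from 129 to 1275 TPM. No neutrophil marker was at 0 at either week, and the part of these markers in the enzyme values was not tested.

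At week 18, 12 weeks after the return to tetracycline, Alas1 was the only member called lower than at week 6 in TOTO mice (background 26.7%, 4.55% as lower). It went from 5.92 to 6.09 TPM in mouse 476, 9.00 to 4.32 in 482, 12.5 to 4.07 in 483 and 27.5 to 8.95 in 545. The weeks overlapped, and the fall rests on 3 of 4 mice, by 0.95 ± 0.35 (SE, limma adjusted p = 0.0393, on rescaled values -1.45). The call was lost without mouse 480, 482, 483, 488, 489, 490 or 545 in turn, with no filter on low genes (adjusted p = 0.0616), without the mouse as a block (0.277) and with the spread modelled over the mean change (0.0532). Neutrophil markers were lower in 10 of 10 (median -3.00), with a sum of 719 to 1340 TPM at week 18. Alas2 was at 0.06 ± 0.31, Cpox at -0.66 (limma adjusted p = 0.0935, on rescaled values 0.0238), and the other 5 lay between 0.01 (Urod) and 0.41 (Alad). On rescaled values 5920 of 10519 genes passed at week 18.

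Among 17 genes that supply or carry parts of the pathway, 16 were tested. None passed at induction, under nilotinib or after it in limma, where genes with small p values included Slc25a37 (0.62) at induction, Slc25a37 (-0.45) and Slc11a2 (0.27) under nilotinib, and Slc25a38 (0.79, limma adjusted p = 0.053) after it. At the return to tetracycline 8 rose and 2 fell, against a background of 69.7% of genes higher and 4.49% lower. The median of the list was 0.46 beside 0.95 over all genes. Those higher included Nfs1 (0.92), of iron-sulphur cluster assembly, Lonp1 (1.26) and Clpx (1.20), mitochondrial protease components, the iron carrier Slc11a2 (1.15), the transporter Abcb10 (0.47), and the glycine carrier Slc25a38 (0.71). Those lower were the mitochondrial iron importer Slc25a37, at -1.02 ± 0.27 (SE, adjusted p = 0.00188), and the scaffold Iscu, at -0.51. Against CML mice Slc11a2, Lonp1, Clpx and Nfs1 were among those that passed as higher, as did 48.8% of all genes.

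Genes of haem use and breakdown numbered 12, with 10 tested. None passed at induction, where the smallest p values belonged to Hmox1, which degrades haem (0.67, limma adjusted p = 0.122), and the haem-binding Hebp1 (0.51). Under nilotinib they belonged to Hmox1 (-0.82, adjusted p = 0.0555) and the haem exporter Flvcr1 (-0.33), and none passed. After nilotinib Hmox1 rose by 1.35 ± 0.27 (SE, limma adjusted p = 0.000432), and Flvcr1 was at 0.60 (adjusted p = 0.104). Hmox1 was 1 of 10 called higher, against a background of 10.8% as higher. At the return to tetracycline Pgrmc1 (0.86), Fth1 (0.86) and Hmox2 (0.70) rose and Hebp1 (-0.84) and Blvrb (-0.70) fell. The list median was -0.04 beside 0.95 over all genes, and the background was again 69.7% higher and 4.49% lower. Of 11 regulators 9 were tested, and none passed at induction, where Nfe2 (0.74, limma adjusted p = 0.104) and Ireb2 (-0.63) had the smallest p values, or under nilotinib, where these were Gata1 (0.40, adjusted p = 0.197) and Tal1 (0.28). The transcription factors Gata1 and Tal1 fell after nilotinib by 1.41 ± 0.32 (limma adjusted p = 0.00151) and 1.17 ± 0.32 (adjusted p = 0.00672). They were 2 of 9 regulators called lower, beside 1678 of 10519 genes. Over that interval 1 of 13 erythroid markers passed as lower (median -0.50) and none as higher. Platelet markers were lower in 6 of 6 (median -2.53) and B cell markers in 6 of 6 (median -2.44). The part of these markers in the Gata1 and Tal1 values was not tested. The iron regulatory proteins Ireb2 (1.38) and Aco1 (0.68) rose at the return to tetracycline (background 69.7% as higher). Against CML mice Ireb2 also passed (1.31, background 48.8% as higher).

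The sexes were compared on the mean of weeks 0 to 6 of each mouse, not on all weeks. Female mice (n = 12) averaged 2054 ± 288 TPM of Alas2 (SD) and male mice (n = 8) 1834 ± 275, an overlap of ranges. The difference between sexes was 0.17 on the log2 scale (limma adjusted p = 0.507), with Alas1 at -0.50 and the other 6 between -0.20 (Cpox) and 0.18 (Fech), and none of the 8 enzymes passed (background 0.0475%, with 1254 genes at an unadjusted p under 0.05). Alas2 lies on the X chromosome.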

How the data were processed

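RNA of whole blood was sequenced weekly after ribosomal RNA depletion, in libraries that keep strand, from samples with an RNA integrity number above 4, per the labels' protocols. Gene values were deposited by the authors as TPM. STAR, Salmon and GRCm39 are named, without versions or roles, per the submitters' processing notes. Because TPM does not keep depth, the depth is unknown and no counting error is given. Every column had a mouse and week (0 left over), and 14537 gene identifiers matched GENCODE M39.

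TPM was taken as log2(TPM + 1), which understates changes of genes near 1 TPM. Each mouse gave 1 change between 2 weeks, which keeps the mouse as a block, since both libraries come from the same animal. Checked on deviations from cohort means, the 2 libraries of a mouse correlated over 0.1 in 14 of 20 mice for weeks 0 and 6 (median r = 0.19), 13 of 15 for weeks 6 and 10 (0.24) and 15 of 19 for weeks 6 and 8 (0.40). The mice are the replicates. Changes of 10519 genes with a mean of at least 1 TPM were tested with limma 3.58.1 in R 4.3.3 (lmFit, and eBayes with a trend), with a term per cohort. The trend was set over mean expression after a fit with limma's default covariate, here the mean change, had been seen; the closing section gives both. Benjamini-Hochberg adjustment ran over all of them, at 0.05. The script was tested on simulated data. Values made of 2 genes were tested two-sided by exact sign flips or exact permutations of mice in Python 3.11.15. Rescaled values use median-ratio factors over the 4339 genes above 0 in every library (0.134 to 3.84). Other settings left out haemoglobin and Rn7s2, changed the pseudocount (0.1), filter, weeks, block or batch term, or left out 1 mouse. The last-library setting after week 11, the haemoglobin ratios and their settings were chosen after seeing the data. The 3 batches of the labels are constant within a mouse, and all TOTO mice are in batch 2022_A.

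The members and gene lists were chosen with earlier results of these data known. Every comparison gives the 8 members, some as a range. Of each other pathway list, the text names genes that passed and, for induction, nilotinib and its withdrawal, those with the smallest p; a few of these genes are not reported here. Genes most like a member are those with the highest Pearson correlation.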

Additional observations from a re-analysis of the deposited data

Results flagged for a closer look

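In 7 of 88 groups of 4 to 10 mice, 1 mouse lay far from the others in the log2 change of an enzyme, by Dixon's 95% limit, which chance passes in about 1 of 20 groups. In TOTO mice at induction, Alas2 changed by -0.97 in mouse 545 and by 2.14 in the nearest other mouse. At the return to tetracycline, Fech changed by -1.47 in TOTO mouse 483, next to -0.11. After nilotinib ended, Alas2 changed by -4.29 in TKI mouse 511, next to -0.96, and Cpox changed by 0.82 in mouse 508, next to -0.01. CML mice set 3 such values: Alad at 0.43 in mouse 484 (next -0.08) and Urod at -0.42 in mouse 480 (next -0.07), both from week 6 to week 8, and Uros at 1.12 in mouse 484 (next 0.30) from week 6 to week 10.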

How the results depend on the processing

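The number of the 8 enzymes that passed depended on the scaling. At induction it was 0, but 1 on rescaled values, 3 without haemoglobin and Rn7s2 and 2 with week 1 as the start. Under nilotinib it was 1, then 3 rescaled, 3 without haemoglobin and Rn7s2, 0 with no replicate block and 4 with week 8 as the end. For nilotinib minus CML it was 1, then 2 rescaled, 4 with week 8, and 0 with a pseudocount of 0.1, no filter, no replicate block or week 9. After withdrawal it was 1 and became 2 under both scalings. At the return to tetracycline it was 3 and became 6 under both, against CML mice 1 and 2 under both, and at week 18 it was 1, then 2 under both, and 0 with no filter or no replicate block. With the trend over the mean change, added after the data were seen, it was 0 under nilotinib, 0 for nilotinib minus CML and 0 at week 18. Leaving out each mouse in turn gave 0 to 2 (nilotinib), 0 to 1 (nilotinib minus CML), 1 to 2 (after withdrawal), 1 to 5 (return to tetracycline), 1 to 2 (minus CML) and 0 to 1 (week 18), and 0 in every run of the other comparisons. Without mouse 483 the count at the return to tetracycline was 1.

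At the return to tetracycline Uros reversed, to -0.36 rescaled and -0.072 without haemoglobin and Rn7s2, as did Ppox rescaled (-0.38, and -0.41 minus CML). The cause was not tested. The log2 change of Alas2 per haemoglobin at induction minus control was 0.35 to 0.42 without 1 mouse and passed only without mouse 514 (adjusted p = 0.0138). For nilotinib minus CML it was -0.28 to -0.20. Of 608 other-setting values of single enzymes, 560 kept their side of the threshold and direction of call, 32 passed only in the alternative, 12 no longer passed and 4 reversed.

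Counts over all genes moved as well. Rescaled and without haemoglobin and Rn7s2, they were 7676 and 7323 at induction (main 2153), 1711 and 0 minus control (2), 30 and 6 at the end state (10), 3837 and 3332 under nilotinib (842), 2199 and 1724 minus CML (364), 4820 and 4520 after withdrawal (2815), and 5920 and 6853 at week 18 (2812). Among calls, the share higher was 21.5, 47.2 and 26.6% at induction on the main, rescaled and haemoglobin-free scales, 39.2, 53.5 and 54.4% under nilotinib, 0.824, 45.2 and 48.3% minus CML, 94.0, 53.8 and 76.1% at the return to tetracycline, 93.4, 52.8 and 78.2% minus CML, and 83.0, 53.0 and 81.4% at week 18. With no replicate block the counts were 0 under nilotinib and 781 at week 18. With no filter they were 4325 at induction and 2 for nilotinib minus CML, and the batch term gave 736 at induction. With the trend over the mean change they were 0 for induction minus control, 0 at the end state and 4 for nilotinib minus CML. With week 9 and week 8 as the end they were 330 and 4305 under nilotinib, and 31 and 1455 minus CML. Depth cannot be judged from TPM, and values near 1 TPM (Alad, Uros) are the least precise.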
